A study of Mus musculus with 6 samples.

Results

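The 10 genes described here encode parts of the cell junctions, and of the polarity machinery built on them, that hold the wall of the brain ventricles together: Cdh2, Cdh4, Ctnnb1, Ctnna1, Pard3, Numb, Mpdz, Shroom3, Crb2 and Ccdc88c. They were taken by symbol, as genes known from adherens junctions, apical polarity and inherited hydrocephalus, with earlier results of these data known. Counts of members called, set beside the share of all genes, are therefore a description and no test of the set. All 10 were found among the genes counted. Their unique molecular identifiers (UMIs, which count captured RNA molecules) were followed in single-nucleus libraries of mouse brain. C57BL/6 S-56 pups received 5 µl of lysophosphatidic acid (LPA), a lipid mediator present in blood, or of its vehicle, PBS with albumin, into a lateral ventricle at postnatal day 7, and brains were taken at postnatal day 15. Nuclei negative for NeuN, a protein of neuronal nuclei, were sorted from whole brain lacking the cerebellum and the olfactory bulbs, with 1 brain per library. There were 3 libraries of LPA-injected and 3 of vehicle-injected mice. An untreated group was not analysed here. The injection is a model of hydrocephalus after hemorrhage that uses a single component of blood.

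Ependymal cells are multiciliated epithelial cells that line the ventricles, and choroid plexus cells are the secretory epithelium that makes cerebrospinal fluid. Both keep an apical face towards the fluid and a belt of adherens junctions below it. In that belt cadherins bind the neighbouring cell, beta-catenin (Ctnnb1) and alpha-catenin (Ctnna1) tie them to actin, and Shroom3 tightens the apical actomyosin. The Crumbs complex (Crb2) and the Par complex (Pard3) mark the apical domain, Mpdz is a scaffold with many PDZ domains at tight junctions, Numb keeps cadherins in place and opposes Notch, and Ccdc88c (Daple) couples Wnt signals to planar polarity and apical constriction. Inherited loss of MPDZ, CCDC88C or CRB2 causes ventricular enlargement in humans, and loss of the cadherin belt opens the ventricular wall in mice.

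In units of 1000000, the libraries held 48.9 to 65.7 UMIs. They had 8639 to 12894 barcodes, of which 7579 to 11745 nuclei passed the filters, with a median of 3732 to 4578 UMIs per kept nucleus. In all 57443 nuclei were clustered without the 10 genes, and 10 cell types were named from marker genes. A name means nuclei that are like that cell type by its markers, and 15681 nuclei stayed unnamed. Among the unnamed was a cluster of 1442 nuclei led by F13a1, a macrophage marker, and Mrc1. The immune cells named here had Siglech and Csf1r among their leading genes and do not include that cluster. Ependymal cells comprised 1222 nuclei, choroid plexus cells 953 and astrocytes 10326. The 12 ependymal markers summed to between 11830 and 13150 CPM (UMIs per 1000000 UMIs) in ependymal cells of each library and to between 88.3 and 162 CPM in astrocytes. Neurons (9207 nuclei) remained despite the sort. Pairs of libraries shared 16 to 39 barcodes. By Xist and Y-linked UMIs, LPA 1, vehicle 1 and vehicle 3 were male and LPA 2, LPA 3 and vehicle 2 female, so both groups held both sexes.

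Of the 10 genes, 4 had their highest level in ependymal cells. Levels are CPM over 6 libraries, scaled across cell types, and are compared only within a gene. Cell types came from clusters of the same nuclei, so the levels are a description with no test, and a pair of cell types is said to differ where the ranges over 6 libraries do not overlap. Crb2 was at 158 ± 20.4 CPM (SD, n = 6) in ependymal cells, 77.0 ± 21.3 CPM in choroid plexus and 15.5 ± 8.91 CPM in astrocytes. These 3 steps did not overlap, and in every other cell type the mean of Crb2 was between 0.498 CPM (oligodendrocytes) and 2.55 CPM (neurons). Shroom3 was as high in choroid plexus (457 ± 66.1 CPM) as in ependymal cells (479 ± 78.3 CPM), with overlapping ranges, and both lay above meningeal cells at 149 ± 21.2 CPM. Ccdc88c was at 417 ± 81.5 CPM in ependymal cells, above astrocytes (160.2 ± 24.1 CPM) and oligodendrocyte precursors (145 ± 16.1 CPM), which overlapped each other. In choroid plexus Ccdc88c was at 46.7 ± 7.57 CPM, or 11.2% of its ependymal mean. Mpdz reached 226 ± 24.8 CPM in ependymal cells, above all other cell types, followed by meningeal cells at 146 ± 16.8 CPM.

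The cadherins and catenins were not highest at the ventricle. Cdh2 (N-cadherin) led in mural cells at 752 ± 80.9 CPM and in astrocytes at 594 ± 23.7 CPM. Mural cells lie around vessels, and those named here had Abcc9 and Rgs5 among their leading genes. Ependymal cells (217 ± 12.1 CPM) and choroid plexus (151 ± 18.1 CPM) followed in that order behind 6 other cell types. Cdh4 (R-cadherin) had its highest mean in neurons at 336 ± 18.2 CPM. Its ependymal level ranged from 48.98 to 331 CPM among the 6 libraries and overlapped those of neurons, oligodendrocyte precursors, mural cells, astrocytes, endothelial cells and choroid plexus. Ctnnb1 led in endothelial cells at 208 ± 24.4 CPM and was at 70.6 ± 14.1 CPM in ependymal cells, which overlapped astrocytes and choroid plexus, among others. Ctnna1 was at 273 ± 31.5 CPM in endothelial cells and at 249 ± 30.6 CPM in choroid plexus, which overlapped, and at 158 ± 18.6 CPM in ependymal cells. Among the polarity genes, Pard3 was broad, with means of 331 to 693 CPM in 9 cell types and 54.9 ± 6.19 CPM in immune cells. Numb showed the reverse pattern, with 1006 ± 318 CPM in immune cells and means of 125 to 269 CPM in the 9 others, none of which overlapped the immune range.

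**Figure D1:**
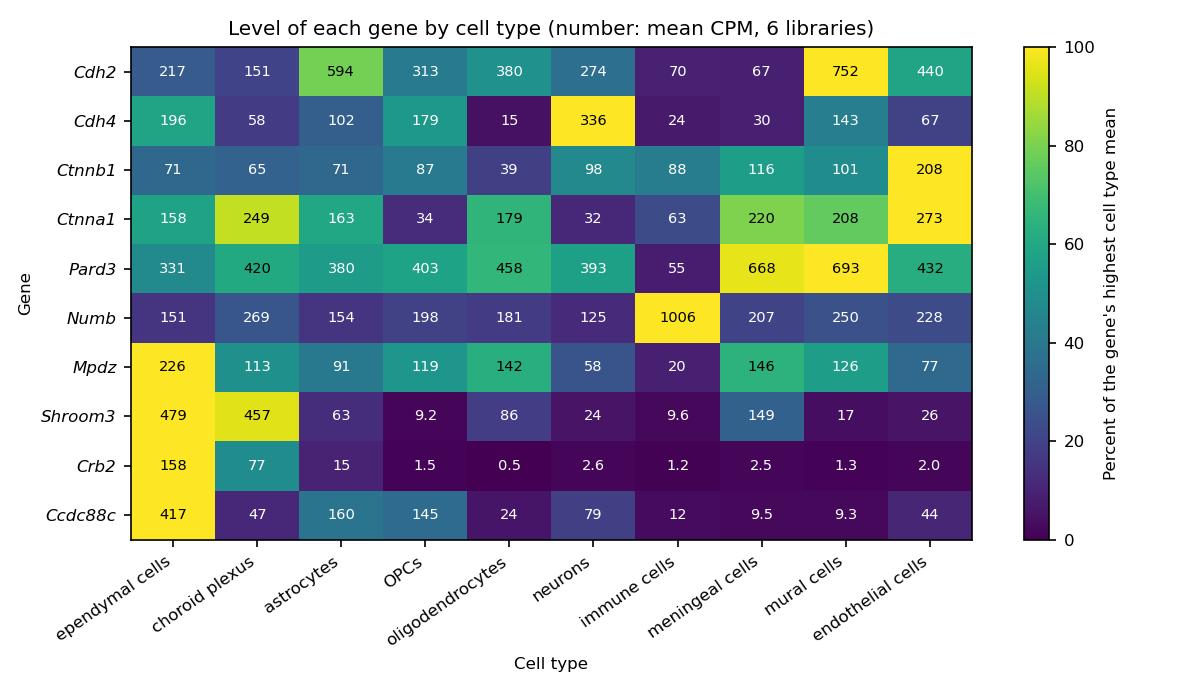
Level of each of the 10 genes (rows) in 10 cell types (columns; OPCs are oligodendrocyte precursors). The number in a cell is the mean CPM over 6 libraries and the color is the percent of the gene's highest cell type mean, so that colors are read along a row. Mpdz, Shroom3, Crb2 and Ccdc88c peak in ependymal cells, Numb in immune cells.

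By the Pearson correlation of mean log2(CPM + 1) over the 10 cell types, among 12055 other genes, the genes most like Crb2 were Ppp1r42 (r = 0.99) and Tekt1 (r = 0.99), the latter a protein of ciliary microtubules. Ntrk2 was the second gene for Ccdc88c (r = 0.95), Fat1 the first for Mpdz (r = 0.91) and Pcdh1, a protocadherin, the first for Cdh2 (r = 0.94). The points share their 6 libraries, and the first genes of the other members were Osbpl6 for Cdh4, Tnfrsf25 for Ctnnb1, Plin3 for Ctnna1, Nedd4 for Pard3, Rnf216 for Numb and 5031425E22Rik for Shroom3, with r from 0.92 (Tnfrsf25) to 0.98 (Rnf216).

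Shroom3 lies on chromosome 5 (92683435 to 92965318, plus strand) and Crb2 on chromosome 2 (37776249 to 37799103, plus strand) of GRCm38, the assembly of mm10. Their upstream sequences are shown because these were, of the 10 genes, those with the largest log2 fold-changes in astrocytes, as described further on. RefSeq starts gave 250 bases each (GRCm38.p6, plus strand), at chr2:37775999-37776248 for Crb2, directly before the annotated gene start, and at chr5:92809132-92809381 for Shroom3, before the start of a shorter transcript within the gene. The sequences are written 5′ to 3′, with capitals for any match to 4 motifs on either strand.
Crb2: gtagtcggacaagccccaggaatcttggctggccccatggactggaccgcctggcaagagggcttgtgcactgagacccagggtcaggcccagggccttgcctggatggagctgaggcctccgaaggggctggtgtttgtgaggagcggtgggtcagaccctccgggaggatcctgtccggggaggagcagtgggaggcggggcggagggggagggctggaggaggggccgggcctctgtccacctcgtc
Shroom3: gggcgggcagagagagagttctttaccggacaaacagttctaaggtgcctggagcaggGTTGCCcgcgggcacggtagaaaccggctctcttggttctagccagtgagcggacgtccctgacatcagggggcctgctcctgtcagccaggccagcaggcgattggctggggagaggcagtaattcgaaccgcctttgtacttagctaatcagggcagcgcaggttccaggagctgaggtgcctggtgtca
The motifs were GGAATG (TEAD), TGANTCA (AP-1), GTTGCC (a half-site of RFX factors) and GTAAACA (forkhead factors), chosen after values and sequences had been seen. Crb2 held none of the 4 in this window, and Shroom3 held 1 RFX half-site, in capitals. The window before another RefSeq start of Shroom3, at chr5:92897743-92897992, held none. Among 32851 windows of this length, 12.6% held the TEAD, 6.75% the AP-1, 10.4% the RFX and 3.17% the forkhead motif. RefSeq promoter entries were matched for 5 of the 10 genes.

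LPA and vehicle were compared within each cell type on UMIs summed per library. A DEG had an adjusted p under 0.05 (edgeR quasi-likelihood test, Benjamini-Hochberg adjustment over all genes tested in the cell type) and a log2 fold-change of 0.25 or more in either direction. The 10 genes gave 5 calls. In ependymal cells 1 of 10 tested was a DEG (Cdh4), against 3.72% of all genes tested. In astrocytes 3 of 10 were DEGs (Crb2, Shroom3, Ccdc88c), against 8.27%. In immune cells 1 of 7 was a DEG (Numb), against 9.09%. The test called none in choroid plexus (background 0.0496%), oligodendrocyte precursors (0.142%), oligodendrocytes (0.464%), meningeal cells (0.927%), mural cells (0.207%), endothelial cells (0%) and neurons (0.113%), and DESeq2 called none there either. At an unadjusted p under 0.05 by edgeR, 8 of the 10 genes passed in astrocytes (3070 of all 14603 genes tested). It was 3 of 10 in ependymal cells (1749 of 10758) and 2 of 7 in immune cells (1814 of 9230). In choroid plexus 2 of 10 passed (615 of 10076), in oligodendrocyte precursors 2 of 9 (832 of 11259) and in endothelial cells 2 of 9 (704 of 11348). In each of the following 1 member passed: oligodendrocytes (1529 of 13788 genes), meningeal cells (1225 of 12511), mural cells (583 of 7735) and neurons (1194 of 15951). In endothelial cells, where edgeR called no gene, DESeq2 called 6. The median log2 fold-change over the tested members was 0.02 in ependymal cells, 0.16 in choroid plexus and 0.21 in astrocytes, beside -0.01, 0.00 and -0.01 over all genes. Low counts kept Crb2 out of the test in endothelial, immune, meningeal and mural cells and in both oligodendrocyte classes, and Shroom3 and Ccdc88c out in immune and mural cells.

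**Figure D2:**
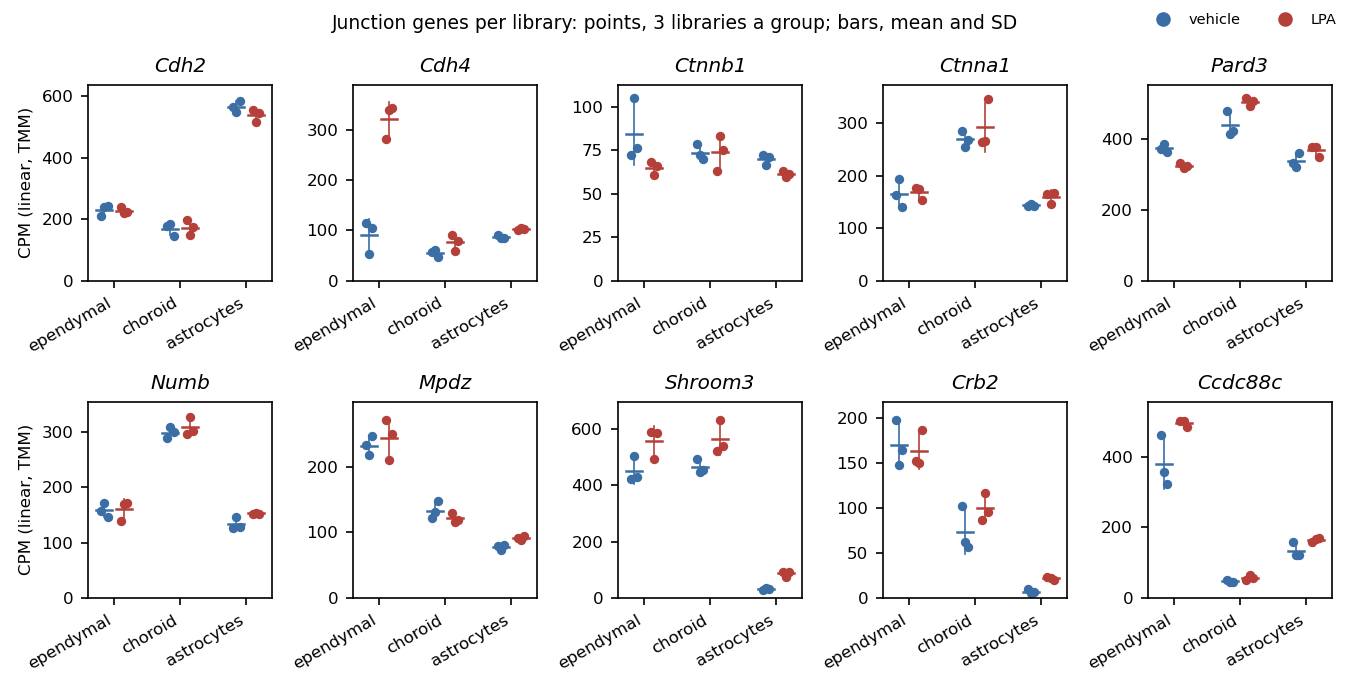
CPM of each gene per library (linear axis from 0) in ependymal cells, choroid plexus and astrocytes. Points are 3 vehicle (blue) and 3 LPA (red) libraries and bars give mean and SD; the groups stand clear of each other for Cdh4 in ependymal cells (280.4 to 343 CPM against 52.6 to 114 CPM) and for Shroom3 and Crb2 in astrocytes.

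Cdh4, a classical cadherin of the developing nervous system, rose in ependymal cells. The LPA libraries held 301, 308 and 386 Cdh4 UMIs in ependymal cells, or 280.4, 339 and 343 CPM. The vehicle libraries held 96, 22 and 52 UMIs, or 114, 52.6 and 104 CPM. All LPA libraries lay above all vehicle libraries, and the log2 fold-change was 1.76 ± 0.17 (SE, n = 3 and 3, edgeR adjusted p = 2.22e-06). In astrocytes the LPA libraries had 99.8, 105 and 102 CPM of Cdh4 and the vehicle libraries 91.4, 85.2 and 83.7 CPM, a log2 fold-change of 0.24 with an adjusted p of 0.0423 by edgeR, which is under the size limit of a DEG. In choroid plexus the groups overlapped, at 59.4 to 89.7 CPM in LPA and 47.8 to 59.98 CPM in vehicle libraries. Cdh2, the main cadherin of the ventricular surface, was at 221 to 238 CPM in LPA and 210.2 to 242 CPM in vehicle ependymal cells, a log2 fold-change of -0.01 ± 0.12 (SE).

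The Cdh4 level differed among kinds of ependymal nuclei, and the nuclei of each kind differed in number between groups. Ependymal nuclei were clustered again, and 1 sub-cluster carried markers of cells forming cilia, among them Mcidas, a regulator of the multiciliation program, and Cdc20b. It held 19, 26 and 33 nuclei in the LPA libraries and 2, 1 and 3 in the vehicle libraries, or 10.7% and 1.21% of ependymal nuclei. There Cdh4 was at 1150, 1260 and 1263 CPM in the LPA libraries, without TMM scaling, and these nuclei gave 455 of the 995 Cdh4 UMIs of LPA ependymal cells (45.7%). The vehicle libraries gave 3 UMIs there in all. A further sub-cluster, led by Gm12162, had 41, 33 and 47 LPA nuclei and 1, 0 and 0 vehicle nuclei, with 226 to 358 CPM of Cdh4 in the LPA libraries. In the 3 sub-clusters that had at least 10 nuclei in every library, led by Slc26a3, Calb1 and Il12rb2, Cdh4 lay between 62.6 and 234 CPM in LPA and between 32.6 and 159.9 CPM in vehicle libraries.

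Without the cells forming cilia, Cdh4 remained a DEG, at 199.8, 199 and 174 CPM against 112, 50.9 and 95.7 CPM (log2 fold-change 1.08 ± 0.18, edgeR adjusted p = 0.00191). This was the 1 member called of 10, against 1.6% of all genes. In these remaining nuclei the 7 markers of cells forming cilia still summed to 553, 367 and 456 CPM in LPA and 267, 192 and 164 CPM in vehicle libraries, and their part in the result was not tested. The test was repeated in only the 3 sub-clusters with at least 10 nuclei in every library. Cdh4 was there at 108, 155 and 111 CPM in LPA and 123, 48.8 and 109 CPM in vehicle libraries, and the groups overlapped. The log2 fold-change was then 0.29 ± 0.24 (adjusted p = 0.793 by edgeR), and none of the 10 genes was called there, with 1 at an unadjusted p under 0.05 and 0.911% of all genes called. These sub-clusters held 44.7% of LPA and 63.0% of vehicle ependymal nuclei, so fewer UMIs stood behind this test. The Slc26a3-led sub-cluster gave 62, 37 and 59 of their 105, 96 and 124 LPA nuclei. In the vehicle libraries it gave 32, 29 and 34 of 145, 67 and 100, so the mix of sub-clusters was not held fixed. Over all ependymal cells, oligodendrocyte markers summed to 1250 to 1835 CPM in LPA and 2904 to 3944 CPM in vehicle libraries, and choroid plexus markers to 352 to 523 CPM and 688 to 874 CPM (all 12 markers of each list detected). The part of either list in the result was not tested.

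**Figure D3:**
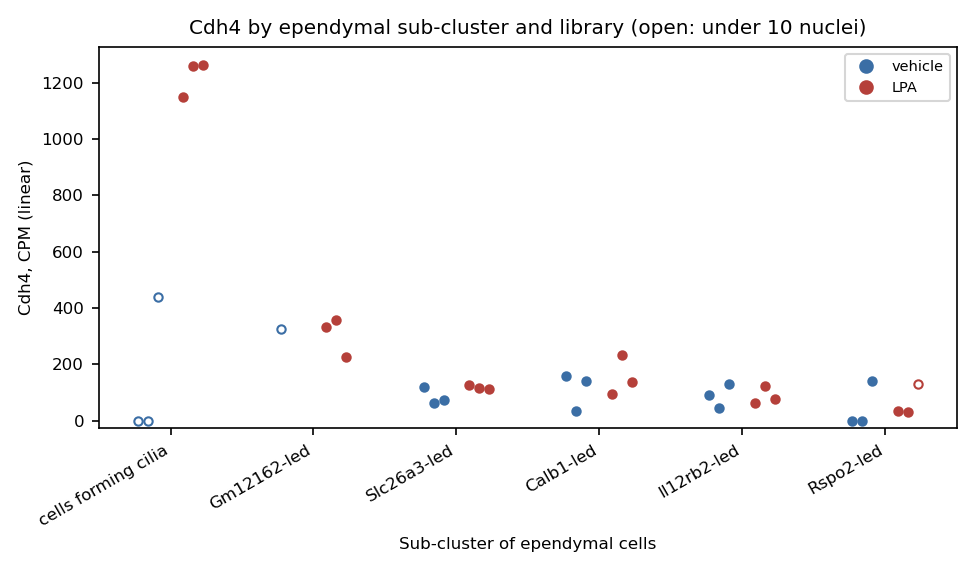
Cdh4 in CPM (linear axis, no TMM scaling) by sub-cluster of ependymal cells, 1 point per library with nuclei there; open points rest on under 10 nuclei. Sub-clusters in which Scrublet called most nuclei as doublets are left out. The 3 LPA libraries reach 1150 to 1263 CPM in cells forming cilia, and all libraries lie between 32.6 and 234 CPM in the Slc26a3-, Calb1- and Il12rb2-led sub-clusters.

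Shroom3 and Crb2, whose products act at the apical belt, rose in astrocytes. Shroom3 had 580, 524 and 509 UMIs (93.6, 73.0 and 92.9 CPM) in the LPA libraries and 97, 208 and 152 UMIs (27.5, 34.0 and 31.2 CPM) in the vehicle libraries. The groups did not overlap, and the log2 fold-change was 1.46 ± 0.11 (SE, edgeR adjusted p = 8.90e-08). Crb2 had 144, 158 and 109 UMIs (23.2, 22.02 and 19.9 CPM) in LPA and 33, 35 and 29 UMIs (9.36, 5.73 and 5.95 CPM) in vehicle libraries, with a log2 fold-change of 1.69 ± 0.17 (edgeR adjusted p = 4.35e-06). In ependymal cells Crb2 was at 151 to 187 CPM in LPA and 148 to 198 CPM in vehicle libraries. Shroom3 in ependymal cells was at 589, 495 and 586 CPM in LPA and 422, 504 and 429 CPM in vehicle libraries, and the groups overlapped (log2 fold-change 0.31 ± 0.12, edgeR adjusted p = 0.163). In choroid plexus Shroom3 was at 523 to 633 CPM in LPA and 447 to 493 CPM in vehicle libraries, with no overlap but an adjusted p of 0.67 by edgeR.

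Ccdc88c, the regulator of planar polarity, rose by a smaller step in astrocytes. Its LPA libraries had 157, 168 and 169 CPM and its vehicle libraries 157, 121 and 121 CPM, so that vehicle 1 reached the lowest LPA value (log2 fold-change 0.32 ± 0.09, edgeR adjusted p = 0.026). The call was lost when LPA 2 (adjusted p = 0.111), LPA 3 (0.115), vehicle 2 (0.157) or vehicle 3 (0.152) was left out. In ependymal cells Ccdc88c was at 502, 503 and 485 CPM in LPA and 463, 356 and 324 CPM in vehicle libraries, without overlap (log2 fold-change 0.37 ± 0.13, edgeR adjusted p = 0.119). Without vehicle 1 it was called there (log2 fold-change 0.56, adjusted p = 0.0222).

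Over all astrocytes the 12 ependymal markers summed to 154 to 162 CPM in LPA and 88.3 to 114.5 CPM in vehicle libraries and oligodendrocyte markers to 1029 to 1203 CPM and 1278 to 1730.0 CPM, and their part in these results was not tested.

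The changes were unevenly spread over the astrocytes. The astrocyte cluster led by Gfap, the filament protein of reactive and of ventricular astrocytes, made up 25.1% of astrocytes in LPA and 11.5% in vehicle libraries. It gave 1343 of 1613 Shroom3 UMIs of LPA astrocytes (83.3%) and 195 of 457 in vehicle (42.7%). For Crb2 these shares were 65.5% and 32.99%. Within the Gfap-led cluster 4 of the 10 genes were DEGs, against 9.43% of all genes, and all 4 were higher: Shroom3 (log2 fold-change 1.00 ± 0.16), Crb2 (1.25 ± 0.29), Ccdc88c (1.045 ± 0.15) and Numb (0.48 ± 0.13). In this cluster the ependymal markers summed to 339 to 419 CPM in LPA and 375 to 598 CPM in vehicle libraries, and the groups overlapped. Oligodendrocyte markers there summed to 1056 to 1228 CPM in LPA and 2030.0 to 2410.0 CPM in vehicle libraries. Markers of oligodendrocyte precursors summed to 759 to 899 CPM and 1185 to 1762 CPM. The part of these marker lists in the result was not tested. Scrublet called 2.36% to 4.01% of its nuclei in LPA and 5.06% to 15.45% in vehicle libraries as doublets, and the part of these in the result was not tested. In the astrocytes outside it, 1 of 10 was called, against 2.31% of all genes. Shroom3 was at 16.5 to 22.3 CPM in LPA and 18.6 to 21.4 CPM in vehicle libraries there (log2 fold-change -0.04 ± 0.15, edgeR adjusted p = 0.936). Crb2 was higher outside it too, at 8.22, 10.6 and 10.9 CPM against 5.98, 4.84 and 4.23 CPM (log2 fold-change 1.04 ± 0.22, edgeR adjusted p = 0.0153). Crb2 and Ccdc88c were the 2 members called in the Slc1a2-led cluster (background 2.6%). In the Slc6a11-led cluster none was called and none had an unadjusted p under 0.05 by edgeR, against 0.37% of all genes called.

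A finer clustering was chosen as the unit of description after the values had been seen. It was made on all nuclei, and its astrocyte clusters included nuclei led by Gfap and Myoc and nuclei led by Thbs4. These held 1267 and 821 nuclei, beside 1921 in the Gfap-led cluster above, so they are not a division of that cluster. In the Gfap- and Myoc-led nuclei Shroom3 went from 1, 3 and 0 UMIs in the vehicle libraries (61, 99 and 77 nuclei) to 252, 222 and 291 UMIs in the LPA libraries (323, 379 and 328 nuclei). This was 6.13, 12.2 and 0 CPM against 205, 169.6 and 243 CPM, and the 0 UMIs of vehicle 3 allow up to 17.3 CPM. The pooled ratio was 29.8, with an exact 95% interval of 11.6 to 109.5 that covers counting error only. With 4 vehicle UMIs for Shroom3 and 8 for Crb2, both passed the filter on low counts only through the LPA libraries. Their calls there are no support, and no fitted value is given for either. In these nuclei 6 of the 10 genes were called, Shroom3 and Crb2 included, against 6.98% of all genes, and all 6 were higher. The others were Cdh4 (log2 fold-change 1.18 ± 0.29), Ccdc88c (0.88 ± 0.20), Cdh2 (0.60 ± 0.13) and Ctnna1 (0.55 ± 0.17). Cdh2 was at 439, 441 and 429.9 CPM in LPA and 300.2, 322 and 254 CPM in vehicle libraries. Cdh4 was at 104, 85.6 and 73.3 CPM against 30.6, 48.9 and 34.7 CPM, and its vehicle values rest on 5, 12 and 6 UMIs. Crb2 rests on 199 LPA and 8 vehicle UMIs, a pooled ratio of 3.87 with an interval of 1.93 to 9.09 for counting error.

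The Thbs4-led nuclei had more Shroom3 and Cdh4 already in the vehicle group. They numbered 67, 174 and 146 in the vehicle and 135, 177 and 122 in the LPA libraries. Of them 8.62% to 29.85% in vehicle and 7.35% to 14.75% in LPA libraries were Scrublet doublets, and the part of these was not tested. Shroom3 was there at 178, 275 and 247 CPM in vehicle and 555, 457 and 457 CPM in LPA libraries (log2 fold-change 1.04 ± 0.16, edgeR adjusted p = 3.64e-04). Ccdc88c was at 117, 84.7 and 65.7 CPM against 166, 184 and 215 CPM (log2 fold-change 1.14 ± 0.22). These were the 2 members called of 10, against 3.2% of all genes. Cdh4 was at 325, 307 and 216 CPM in vehicle and 276, 287 and 290.4 CPM in LPA libraries, and overlapped. Ependymal markers were followed in the same nuclei, all 12 being detected. In the Gfap- and Myoc-led nuclei they summed to 133 to 174 CPM in LPA and 79.7 to 93.8 CPM in vehicle libraries. Oligodendrocyte markers there summed to 980.4 to 1205 CPM in LPA and 1587 to 2182 CPM in vehicle libraries, and markers of oligodendrocyte precursors to 657 to 807 CPM and 1126 to 1409 CPM. In the Thbs4-led nuclei the ependymal markers summed to 1048 to 1203 CPM in LPA and 529.6 to 1019 CPM in vehicle libraries. Markers of cells forming cilia were at 154 to 397 CPM there in LPA and 0 to 30.7 CPM in vehicle libraries. The part of these marker lists in the results was not tested. Whether a cluster holds nuclei of the same kind in both groups was not tested.

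**Figure D4:**
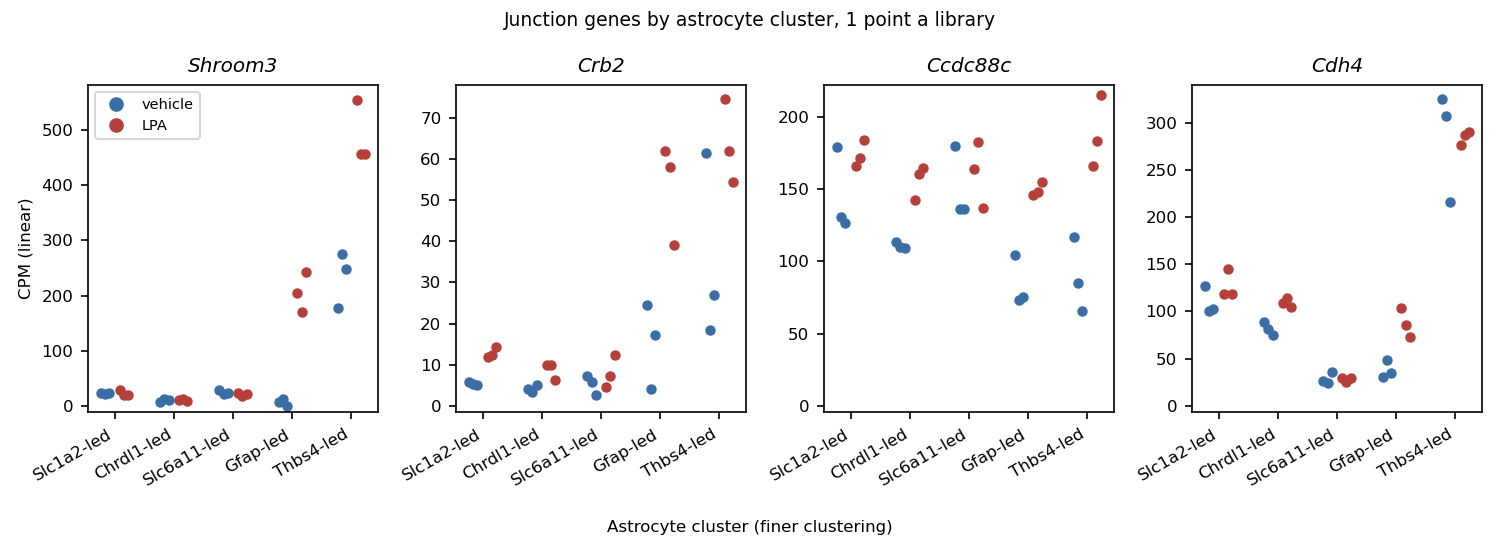
CPM of Shroom3, Crb2, Ccdc88c and Cdh4 (linear axes, no TMM scaling) in 5 astrocyte clusters of the finer clustering, 1 point per library. Shroom3 is near 0 in vehicle libraries of the Gfap-led cluster (up to 12.2 CPM) and at 169.6 to 243 CPM in LPA libraries, while it is low in both groups in the Slc1a2-, Chrdl1- and Slc6a11-led clusters.

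Numb, an adaptor that brings integrins, cadherins and Notch into endocytosis, fell in the named immune cells, which leave out the F13a1-led cluster. It had 719, 933 and 619 UMIs (902, 912 and 743 CPM) in LPA and 239, 750 and 212 UMIs (1521, 1623 and 1740.0 CPM) in vehicle libraries. The groups did not overlap, and the log2 fold-change was -0.93 ± 0.12 (SE, edgeR adjusted p = 2.09e-07). At the finer clustering, a Gpnmb-led cluster held 156, 229 and 235 nuclei in LPA and 0, 2 and 1 in vehicle libraries, and Numb was at 437 to 486 CPM in its LPA nuclei. The Siglech-led cluster held 237, 313 and 192 LPA nuclei and 112, 318 and 95 vehicle nuclei. Numb was at 1192, 1257 and 1102 CPM in LPA and 1439, 1555 and 1764 CPM in vehicle libraries of that cluster. Its log2 fold-change there was -0.43 ± 0.12 with an adjusted p of 0.109 by edgeR, none of 7 members was called (2 at an unadjusted p under 0.05), and 0.465% of all genes were. The 12 immune markers summed to 9736 to 10340 CPM in LPA and 10650 to 12170 CPM in vehicle libraries of the Siglech-led cluster. Oligodendrocyte markers summed to 1687 to 1919 CPM in LPA and 2556 to 3428 CPM in vehicle libraries over all immune cells, and to 1892 to 2131 CPM and 2529 to 3430.0 CPM in the Siglech-led cluster, and their part in the result was not tested. Ctnna1 in immune cells had 75, 98 and 91 UMIs in LPA and 11, 32 and 2 in vehicle libraries (log2 fold-change 0.73 ± 0.25, edgeR adjusted p = 0.066). The SE of Numb in ependymal cells was 0.14 around a log2 fold-change of 0.02.

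The catenins, Pard3 and Mpdz were not called in the ventricular epithelia. In ependymal cells Ctnnb1 was at 60.4 to 68.0 CPM in LPA and 72.4 to 105 CPM in vehicle libraries, without overlap (log2 fold-change -0.34 ± 0.18, edgeR adjusted p = 0.361). Pard3 was at 318 to 334 CPM in LPA and 364 to 387 CPM in vehicle libraries, also without overlap (-0.20 ± 0.11, adjusted p = 0.391 by edgeR). Ctnna1 was at 153 to 176 CPM against 140.1 to 194 CPM, and Mpdz at 209.9 to 271 CPM against 217 to 246 CPM. In choroid plexus Pard3 was at 494 to 517 CPM in LPA and 416 to 479.5 CPM in vehicle libraries, while the ranges of Ctnnb1, Ctnna1, Mpdz, Numb and Cdh2 overlapped.

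**Figure D5:**
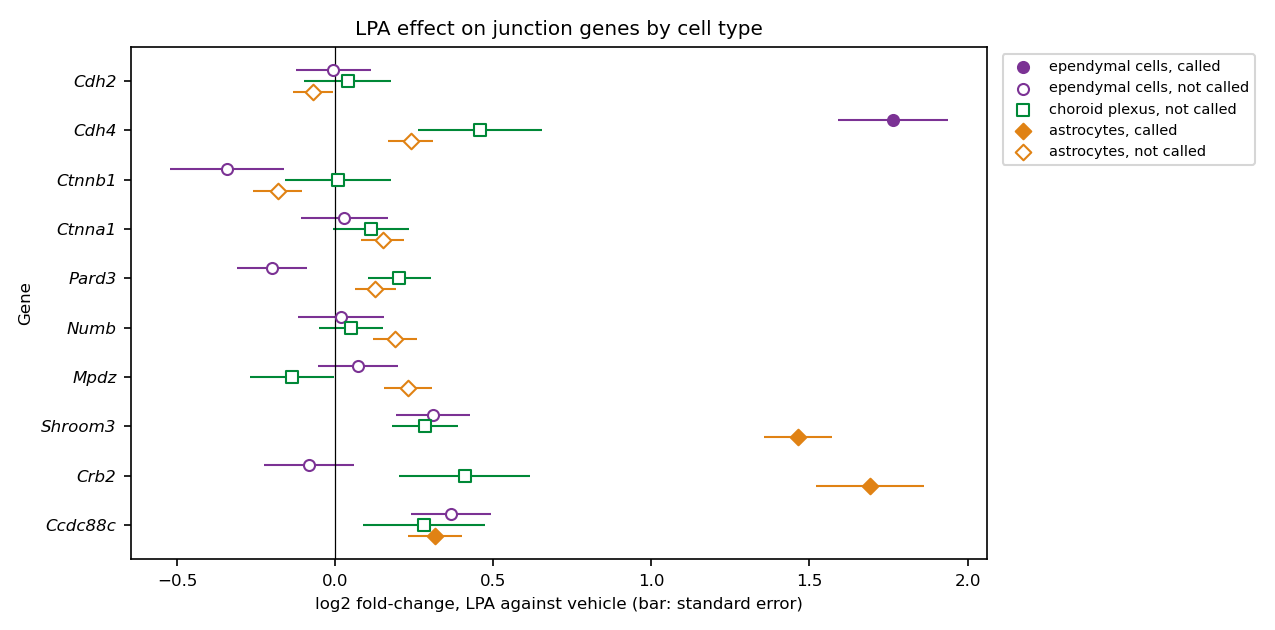
Log2 fold-change of LPA against vehicle (x axis; bars are standard errors) for each gene in ependymal cells, choroid plexus and astrocytes. Filled symbols are DEGs: Cdh4 in ependymal cells at 1.76, and Crb2, Shroom3 and Ccdc88c in astrocytes at 1.69, 1.46 and 0.32.

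Whether the effects differed between cell types was tested by the interaction of cell type and treatment, with the library as a block and all genes adjusted together. Between ependymal cells and astrocytes 3 of 10 members differed, against 2.62% of all genes. The effect on Cdh4 was larger in ependymal cells by 1.54 ± 0.17 on the log2 scale (edgeR adjusted p = 1.40e-07). The effects on Crb2 and Shroom3 were smaller there, by differences of -1.71 ± 0.21 (adjusted p = 1.40e-06) and -1.18 ± 0.13 (1.40e-07). Between choroid plexus and astrocytes Crb2 (-1.19 ± 0.23, edgeR adjusted p = 0.00876) and Shroom3 (-1.19 ± 0.16, 1.19e-04) differed, against 0.754% of all genes. The Crb2 difference was not called without vehicle 1 (adjusted p = 0.0937) or vehicle 2 (0.0722). Between ependymal cells and choroid plexus Cdh4 differed (1.33 ± 0.27, edgeR adjusted p = 0.0168; 0.316% of all genes), a call that was lost without LPA 2 (0.0637), LPA 3 (0.0535) or vehicle 2 (0.139). For Ccdc88c the difference between ependymal cells and astrocytes was 0.07 ± 0.12.

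Relatives of the 10 genes were read from 4 lists in the same 3 cell types, beside 3.72% of all genes called in ependymal cells, 0.0496% in choroid plexus and 8.27% in astrocytes. None of the listed genes was called in choroid plexus by edgeR or DESeq2, with 1 to 3 per list at an unadjusted p under 0.05. Among 24 other cadherins, catenins and nectins, 2 of 21 tested were called in ependymal cells and 2 of 22 in astrocytes, with medians of -0.17 and 0.08 over the list. The delta-catenin Ctnnd2 was higher in ependymal cells, at 1048 to 1228 CPM against 767 to 935 CPM (log2 fold-change 0.46 ± 0.11). Cdh19, a cadherin of the oligodendrocyte and Schwann lineages, was lower there, at 31.7 to 42.9 CPM against 76.0 to 98.1 CPM (-1.18 ± 0.19). The oligodendrocyte markers given above were lower there too, and their part in this result was not tested. Cdh19 was also lower in astrocytes, where vehicle 1 (137 CPM) lay within the LPA range of 131 to 142 CPM (-0.32 ± 0.09). Ctnna2, the neural alpha-catenin, was higher in astrocytes, at 1542 to 1574 CPM against 1095 to 1225 CPM (0.42 ± 0.06, edgeR adjusted p = 1.29e-04).

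Of 19 other polarity proteins, 1 of 14 tested was called in ependymal cells and 3 of 16 in astrocytes (medians -0.01 and 0.06). Prkcz, the atypical protein kinase C of the Par complex, was lower in ependymal cells, at 96.9 to 109 CPM against 127 to 182 CPM (log2 fold-change -0.61 ± 0.15), but was not called by DESeq2 (adjusted p = 0.103). In astrocytes Lin7a, which binds the Crumbs complex, was higher at 27.7 to 34.4 CPM against 15.04 to 16.8 CPM (0.91 ± 0.12), and so was Pard3b, the paralog of Pard3 (0.36 ± 0.06), while the scaffold Dlg5 was lower (-0.36 ± 0.07). Of 22 genes of apical actomyosin and planar polarity, none of 20 was called in ependymal cells by edgeR or DESeq2 (4 unadjusted; median 0.10) and 3 of 22 in astrocytes (median 0.04). These 3 were higher: the myosin heavy chain Myh10 (0.59 ± 0.09), the Wnt receptor Fzd3 (0.44 ± 0.09) and the planar polarity cadherin Celsr1 (0.37 ± 0.11), the last of which DESeq2 did not call (adjusted p = 0.191). Of 17 tight junction genes, 1 of 10 was called in ependymal cells (median 0.04), Ocln, the occludin gene, at 56.0 to 63.7 CPM against 78.8 to 121 CPM (-0.79 ± 0.18), which DESeq2 did not call (adjusted p = 0.0827). In astrocytes 1 of 11 was called (median 0.04), Tjp1, the gene of the scaffold ZO-1 (0.26 ± 0.07).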

How the data were processed

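Single-nucleus libraries of 3 LPA-injected and 3 vehicle-injected mice were analysed. The authors deposited filtered matrices of raw UMI counts made with Cell Ranger 4.0.0 on a pre-mRNA reference of mm10, so intronic reads count and long genes gather more UMIs. Nuclei were kept with 300 genes, 1% or less of mitochondrial UMIs and UMIs within 1.5 interquartile ranges above the upper quartile. They were clustered with scanpy 1.11.5 and leidenalg 0.10.2 (3000 variable genes without the members, markers and listed relatives, 40 components, 30 neighbors, resolution 1; finer clustering at resolution 2), and clusters were named from markers. Ependymal nuclei were clustered again on 2000 genes. Scrublet calls were left out only as an alternative, although they were 16.1% to 28.4% of ependymal nuclei and 20.2% to 25.5% of choroid plexus nuclei by library.

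UMIs were summed per library and cell type with at least 10 nuclei per library, and tested with edgeR 4.0.16 (TMM, filterByExpr, quasi-likelihood F test, Benjamini-Hochberg). DESeq2 1.42.0 was an alternative. Several tests were chosen after the data had been seen. These were the tests without the cells forming cilia, in the ependymal sub-clusters with at least 10 nuclei per library and in the Siglech-led cluster. So were those in single astrocyte clusters other than the Gfap-led cluster of resolution 1. The procedure was tested on simulated data. The labels do not say from which litters the mice came. Members and lists were chosen with earlier results of these data known. The members are named in every cell type. Of each list, up to 3 called genes of lowest adjusted p per direction are named, and for likeness up to 2 genes per member with at least 20 CPM in 1 cell type.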

Additional observations from a re-analysis of the deposited data

Results flagged for a closer look

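A test of the difference between cell types singled out 6 values. The LPA effect in ependymal cells minus that in astrocytes was 1.54 for Cdh4, -1.71 for Crb2 and -1.18 for Shroom3 on the log2 scale. In ependymal cells minus choroid plexus it was 1.33 for Cdh4. In choroid plexus minus astrocytes it was -1.19 for Crb2 and -1.19 for Shroom3. Cells forming cilia were 10.7% of LPA and 1.21% of vehicle ependymal nuclei. The Gfap-led cluster was 25.1% of LPA and 11.5% of vehicle astrocytes, and Shroom3 and Crb2 were DEGs within it too. The part of these shares in the 6 values was not tested, and the differences between cell types were not tested within these nuclei.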

How the results depend on the processing

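Counts of members called kept within 1.5 times their value in 138 of 149 alternatives. In cell types with no call, 0 staying at 0 was taken as kept, and so was a fall from 3 to 2 in astrocytes. This total therefore says little about how firm the calls are. In ependymal cells 2 members were called without the filter on low counts and 0 in the sub-clusters with at least 10 nuclei in every library. In astrocytes 1 was called without the Gfap-led cluster and 0 in the Slc6a11-led cluster alone. In the Gfap-led cluster of resolution 2 it was 6, with Shroom3 at 4 and Crb2 at 8 vehicle UMIs. In immune cells 2 were called without the low-count filter, without Scrublet calls and without the mitochondrial filter, and 0 in the Siglech-led cluster. In meningeal cells 1 was called without the mitochondrial filter, where that name fell to another set of 905 nuclei, led by Bglap and Col1a1. Leaving out 1 library gave 1 to 2 calls in ependymal cells, 2 to 4 in astrocytes, 1 to 2 differences between choroid plexus and astrocytes, and 0 to 1 between ependymal cells and choroid plexus. Shares of all genes called are not given for the changed filters and left-out libraries, so these counts are no result about the members.

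Some log2 fold-changes changed sign: in the Gfap-led cluster Cdh4 was at -0.40; in the Slc6a11-led cluster Cdh4 was at -0.25, Numb at -0.023, Mpdz at -0.059 and Shroom3 at -0.23; and without the Gfap-led cluster Shroom3 was at -0.041. The cause was not tested. Without Scrublet calls mean levels moved to 291 CPM for Ctnnb1 and 385 CPM for Ctnna1 in endothelial cells, and to 269.6 CPM for Mpdz, 600.0 CPM for Shroom3, 199 CPM for Crb2 and 523 CPM for Ccdc88c in ependymal cells. At resolution 2 they moved to 388 CPM for Cdh4 in neurons, and 288 CPM for Ctnnb1 and 383 CPM for Ctnna1 in endothelial cells. Each of these kept its leading cell type, but Ctnnb1 led in meningeal cells without the mitochondrial filter. In that setting the Aox3-, Slc47a1- and Ptgds-led clusters stayed unnamed, so the meningeal class was a different set of nuclei. It had 137 to 168 nuclei per library, with median UMIs of 731 to 921.5, against 304 to 1220 nuclei in the main setting.

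Whether replicate numbers pair the samples was not settled. Correlations of same-numbered libraries ran from -0.18 to 0.19, and in 0 of 10 cell types were all over 0.1. Differently numbered libraries were not correlated for comparison, so these values cannot decide it. With a replicate block the called members numbered 1 in ependymal cells, 3 in astrocytes and 1 in immune cells, and 0 elsewhere. Shares of all genes called with that block are not given here. Limits: choroid plexus rests on 953 nuclei and the vehicle nuclei forming cilia on 6, and clusters were read from the same nuclei as the values.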
